A study of Homo sapiens with 6 samples.

Results

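The kinesin genes of PC-3 cells were taken as every row of the deposited gene table whose symbol is KIF followed by a number and at most a letter, or KIFC1, KIFC2 or KIFC3. This rule found 43 genes among the 38843 in the table. They were divided into 12 mitotic members (KIF2C, KIF4A, KIF11, KIF14, KIF15, KIF18A, KIF18B, KIF20A, KIF20B, KIF22, KIF23 and KIFC1) and 31 others. Messenger RNA was sequenced from PC-3, an established line of human prostate carcinoma cells that came from a bone metastasis and grow without androgen, labelled wild type in both groups. The treated group was 3 libraries of cells kept with cepharanthine hydrochloride (an alkaloid from Stephania plants) at 5 µM and collected on day 3. The control group was 3 libraries of cells grown to day 3 without it, and the labels name no vehicle. Both groups grew in DMEM with 10% fetal bovine serum. Separate cultures are not stated for the 3 libraries of each group, so the spread behind every p-value may be technical.

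Kinesins are motor proteins that turn ATP hydrolysis into movement along microtubules or into the dismantling of microtubule ends. Mitotic kinesins push spindle poles apart, crosslink and shorten spindle microtubules, position chromosomes and build the midzone at which the cell divides. Transcripts of many of them are known to accumulate late in the cell cycle. Transport kinesins carry vesicles, organelles, messenger RNAs and ciliary components, mostly away from the cell centre.

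Total counts were 53017816 to 68241156 in treated and 52774506 to 59241954 in control libraries. Values below are CPM from raw counts and TMM-scaled library sizes or, where genes are compared with each other, the deposited FPKM, which is per length. Of 21965 genes tested, 3219 were higher and 2902 lower in treated cells (edgeR quasi-likelihood F-test, threshold 0.05 on p adjusted by the Benjamini-Hochberg method), so 52.6% of the calls were higher. That share was 62.8% in limma on log2(FPKM + 1) and 83.4% after FPKM was rescaled to TPM. With this rescaling all genes had a median log2 fold change of 0.26, against 0.07 without it. Mitochondrially encoded genes took 4.86% to 6.61% of counts in treated and 8.75% to 12.2% in control libraries, and a fit without them left every count of kinesins below as it was. The epithelial markers KRT8, KRT18 and EPCAM and the mesenchymal VIM, all known in PC-3, averaged 15.4 to 199 FPKM in treated and 19.2 to 114 FPKM in control cells. Of 11 markers of immune, fibroblast, endothelial, neuronal and multiciliated cells, 10 were in the table. Their summed level was 9.53 to 9.71 FPKM in treated and 14.6 to 16.4 FPKM in control libraries, 2 were called lower (COL1A1 and PECAM1), and TEKT1 was at 0 in all 6 libraries. Their part in the results was not tested.

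Mitotic kinesins were higher in treated cells. Of the 12 members, all of which passed the filter on low counts, 10 rose, while 14.7% of all genes tested were called higher. No mitotic kinesin was called lower by edgeR, DESeq2 or limma, and 0 were lower at an unadjusted p under 0.05. In 9 of the 12 all 3 treated values lay above all 3 control values, as in 21.8% of the genes tested. A rise of at least 1 on the log2 scale was seen in 4 members (KIF2C, KIF20A, KIF4A and KIF14), while 2.18% of all genes were called with a rise of that size. The median log2 fold change of the mitotic members was 0.85, against -0.02 over all genes tested. In bulk RNA, more cells late in the cell cycle and more transcript per cell cannot be told apart.

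**Figure D1:**
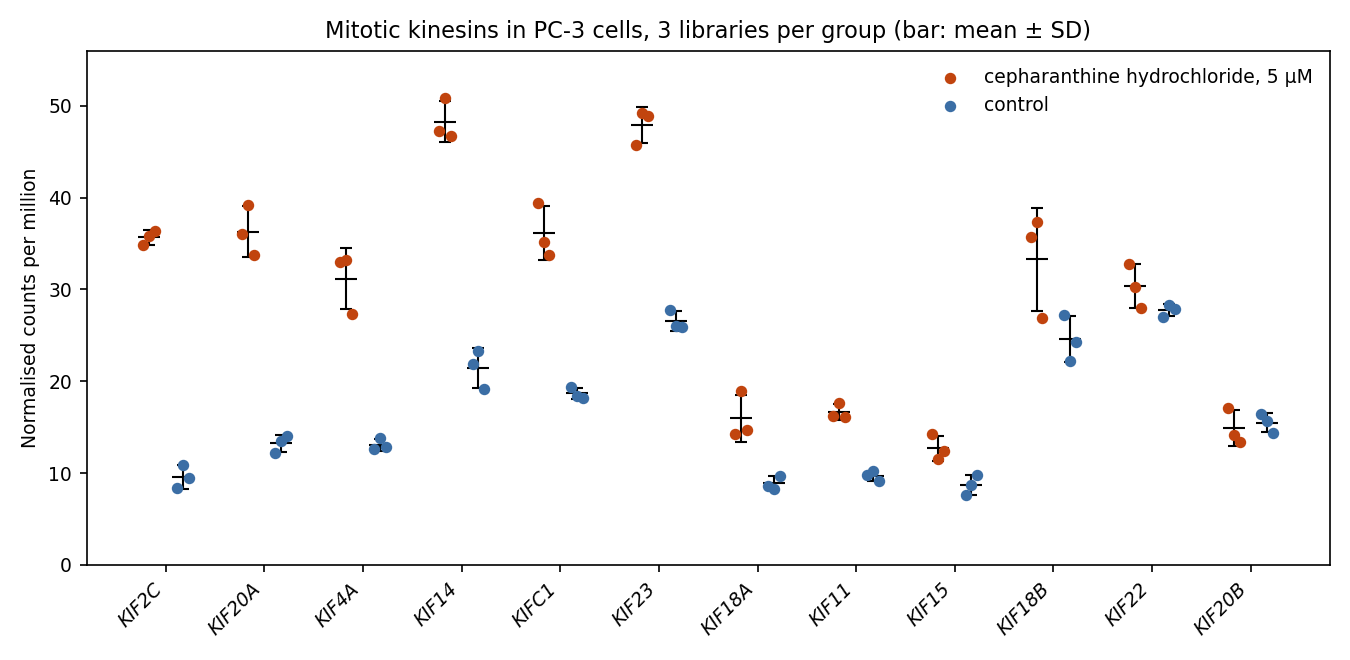
TMM-normalised CPM of the 12 mitotic kinesins, ordered by fold change, in the 3 cepharanthine libraries and the 3 control libraries (points), with mean and SD (bars). KIF2C lies at 34.8 to 36.4 in treated libraries and 8.32 to 10.9 in control libraries, while KIF22 and KIF20B at the right overlap between the groups.

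Of the 5 kinesins that act on chromosomes and microtubule ends, 4 rose, among them the mitotic member with the highest fold change. KIF2C (ENSG00000142945, chromosome 1 from 44739818 to 44767767 on the plus strand, GRCh38) encodes MCAK, which takes tubulin off microtubule ends at kinetochores and corrects faulty attachments. It had 34.8, 35.8 and 36.4 CPM in treated libraries, against 8.32, 10.9 and 9.46 CPM in control libraries. The groups did not overlap, and KIF2C rose 3.73-fold (log2 fold change 1.90 ± 0.12 SE, edgeR adjusted p = 7.6e-06). Its log2 fold change was above that of 99.3% of the genes tested. KIF4A, a chromokinesin that binds chromosome arms and limits the length of midzone microtubules, had 33.0, 33.2 and 27.3 CPM in treated and 12.6, 13.8 and 12.8 CPM in control libraries. It rose by a log2 fold change of 1.25 ± 0.11 (edgeR adjusted p = 4.6e-05), with no overlap. KIF4A (chromosome X from 70290104 to 70420886) overlaps PDZD11 on the opposite strand over 411 bases, and PDZD11 was higher by 0.49 ± 0.13. Whether reads were counted by strand is not known here.

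KIF18A and KIF18B belong to the kinesin-8 motors, which walk to the plus ends of spindle microtubules and dampen their dynamics. KIF18A had 14.3, 18.9 and 14.7 CPM in treated and 8.61, 8.30 and 9.72 CPM in control libraries, and rose by a log2 fold change of 0.85 ± 0.15 (edgeR adjusted p = 0.00233). KIF18B had 35.7, 37.3 and 26.9 CPM in treated and 27.2, 22.2 and 24.3 CPM in control libraries. Its cepharanthine replicate 3 lay just under control replicate 1, so the groups overlapped. KIF18B passed narrowly, with a log2 fold change of 0.44 ± 0.13 (edgeR adjusted p = 0.0354). It missed the threshold without cepharanthine replicate 1 (0.39, edgeR adjusted p = 0.118), without cepharanthine replicate 2 (0.35, edgeR adjusted p = 0.136), without control replicate 2 (0.37, edgeR adjusted p = 0.107) and without control replicate 3 (0.43, edgeR adjusted p = 0.0992), and in limma without a filter (0.41, limma adjusted p = 0.0767). Over the 15 alternatives its adjusted p ranged from 0.00446 to 0.136. KIF22, the chromokinesin Kid that pushes chromosome arms towards the equator, had 32.8, 30.3 and 28.0 CPM in treated and 27.0, 28.3 and 27.9 CPM in control libraries. These overlapped, and KIF22 was not called (0.13 ± 0.09, edgeR adjusted p = 0.337), though limma on log2(TPM + 1) called it higher (0.35, limma adjusted p = 0.0309).

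Among the motors of the midzone and of cytokinesis, 3 of 4 rose. KIF20A (MKLP2), which brings the chromosomal passenger complex to the midzone, had 36.0, 39.2 and 33.7 CPM in treated and 12.2, 13.5 and 14 CPM in control libraries. KIF14, which recruits citron kinase to the midbody, had 47.3, 50.8 and 46.7 CPM in treated and 21.9, 23.3 and 19.1 CPM in control libraries. KIF23 (MKLP1), the motor of the centralspindlin complex, had 45.7, 49.2 and 48.9 CPM in treated and 27.8, 26.0 and 25.9 CPM in control libraries. None of the 3 overlapped between the groups. Their log2 fold changes were 1.45 ± 0.10 for KIF20A, 1.17 ± 0.10 for KIF14 and 0.85 ± 0.08 for KIF23, with edgeR adjusted p of 1.5e-05, 3.0e-05 and 6.1e-05. KIF20A overlaps CDC23 on the opposite strand over 74 bases, and CDC23 had a log2 fold change of 0.00 ± 0.08. KIF20B (MPP1), a relative of KIF20A that also acts late in cytokinesis, had 17.1, 14.1 and 13.4 CPM in treated and 16.4, 15.7 and 14.4 CPM in control libraries. Its groups overlapped and it was not called (-0.06 ± 0.13, edgeR adjusted p = 0.782). The difference between KIF20A and KIF20B was not tested.

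All 3 motors that separate or crosslink spindle poles rose. KIF11 (Eg5), the tetrameric motor that slides antiparallel microtubules apart, had 16.2, 17.6 and 16.1 CPM in treated and 9.74, 10.2 and 9.16 CPM in control libraries. KIFC1 (HSET), a minus-end-directed motor that focuses poles and clusters extra centrosomes in cancer cells, had 39.4, 35.2 and 33.8 CPM in treated and 19.4, 18.4 and 18.2 CPM in control libraries. In neither gene did the groups overlap, and the log2 fold changes were 0.78 ± 0.12 for KIF11 and 0.95 ± 0.09 for KIFC1 (edgeR adjusted p = 0.00103 and 8.9e-05). KIF15 (HKLP2), which can take over part of the work of KIF11, had 14.2, 11.5 and 12.4 CPM in treated and 7.58, 8.67 and 9.79 CPM in control libraries. It rose by 0.55 ± 0.15 (edgeR adjusted p = 0.0208), without overlap. The call of KIF15 ended without cepharanthine replicate 1 (0.46, edgeR adjusted p = 0.0849) or control replicate 1 (0.46, edgeR adjusted p = 0.0772), and in limma without a filter (0.39, limma adjusted p = 0.0832). Its adjusted p ranged from 0.0047 to 0.0849 over 15 alternatives.

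Because the members moved by different amounts, their order by level differed between the groups. On the FPKM scale KIFC1 was the most abundant mitotic kinesin in treated cells (10.6 ± 0.959, SD, n = 3), followed by KIF2C (8.68 ± 0.455), KIF20A (8.35 ± 0.282) and KIF23 (6.47 ± 0.332). KIF2C and KIF20A differed there by less than their spread. In control cells KIF22 (5.49 ± 0.311) and KIFC1 (5.26 ± 0.253) came first and also lay within their spread, followed by KIF18B (4.45 ± 0.367) and KIF23 (3.44 ± 0.169). KIF2C ranked 2 among the 12 in treated cells, against 8 in control cells (2.24 ± 0.385 FPKM). It made up 12.6% of their summed mean FPKM in treated and 6.32% in control cells, whereas KIF22 made up 9.09% and 15.5%. KIF20B was at rank 12 in treated and 9 in control cells, with 1.93 FPKM in both. The 12 members together had 66.9 to 71.1 FPKM in treated and 34 to 37.3 FPKM in control libraries. Levels of different genes rest on the gene lengths used for FPKM, which were not checked here.

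Since most mitotic members rose together, their promoters were examined in RefSeq windows (GRCh38.p14) from 250 bases before to 50 bases after the transcript start. Of the 43 kinesins, 34 matched by symbol. KIF5A, KIFC2, KIFC3, KIF13B, KIF21B, KIF27, KIF19, KIF26B and KIF28P did not. The cell cycle homology region (CHR) is a short element bound by MuvB complexes, which hold late cell cycle genes off in resting cells and help switch them on before mitosis. It was searched as TTTGAA or TTCGAA. The CCAAT box, bound by the factor NF-Y and often found near it, was searched as CCAAT, and E2F elements as TTCCCGC or TTGGCGC. Both strands were read, and an E2F match can share bases with a CCAAT box. CHR letters stood in 10 of the 12 mitotic genes and in 3 of the 22 other kinesins with a window (KIF24, KIF4B and KIF5B). They were in 16.4% of all 35116 windows. CHR and CCAAT letters were both found in 9 of the 12 mitotic genes, in 3 of the 22 others and in 6.38% of all windows. E2F letters stood in 3 of the 12, in 5 of the 22 and in 9.23% of all windows.

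KIF2C and KIF20A, with the highest log2 fold changes, were the members without CHR letters in the window. KIF22 and KIF20B, which were not called, had them. Other spellings of the CHR were not searched, and a link of the letters to the fold changes was not tested. Stretches upstream of the start are shown for members that rose with both elements (KIF4A, KIF11 and KIF18A), with CCAAT boxes upstream and CHR letters past the start (KIF18B), without either (KIF2C), and for the transport kinesin KIF5B. Capitals mark the CHR letters and the CCAAT boxes, in either orientation, and each reads 5′ to 3′ on the strand of the gene. They are KIF4A at chrX:70290004-70290103 (plus strand), KIF11 at chr10:92593030-92593129 (plus), KIF18A at chr11:28108157-28108256 (minus), KIF18B at chr17:44947774-44947873 (minus), KIF2C at chr1:44739718-44739817 (plus) and KIF5B at chr10:32056426-32056585 (minus).
KIF4A: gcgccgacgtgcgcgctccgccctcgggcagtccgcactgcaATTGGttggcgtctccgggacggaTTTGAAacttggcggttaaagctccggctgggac
KIF11: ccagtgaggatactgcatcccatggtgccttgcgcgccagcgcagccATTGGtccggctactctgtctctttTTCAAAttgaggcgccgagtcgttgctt
KIF18A: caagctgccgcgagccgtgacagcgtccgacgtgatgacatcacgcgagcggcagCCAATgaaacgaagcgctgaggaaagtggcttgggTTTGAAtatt
KIF18B: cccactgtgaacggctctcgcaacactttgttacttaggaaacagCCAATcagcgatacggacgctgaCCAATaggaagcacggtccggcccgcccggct
KIF2C: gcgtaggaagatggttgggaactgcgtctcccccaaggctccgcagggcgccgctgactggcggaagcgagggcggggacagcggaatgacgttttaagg
KIF5B: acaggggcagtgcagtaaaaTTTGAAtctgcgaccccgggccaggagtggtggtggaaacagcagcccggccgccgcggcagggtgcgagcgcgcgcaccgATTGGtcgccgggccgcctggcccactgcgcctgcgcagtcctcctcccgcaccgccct
A match is a run of letters, and binding was not measured.

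**Figure D2:**
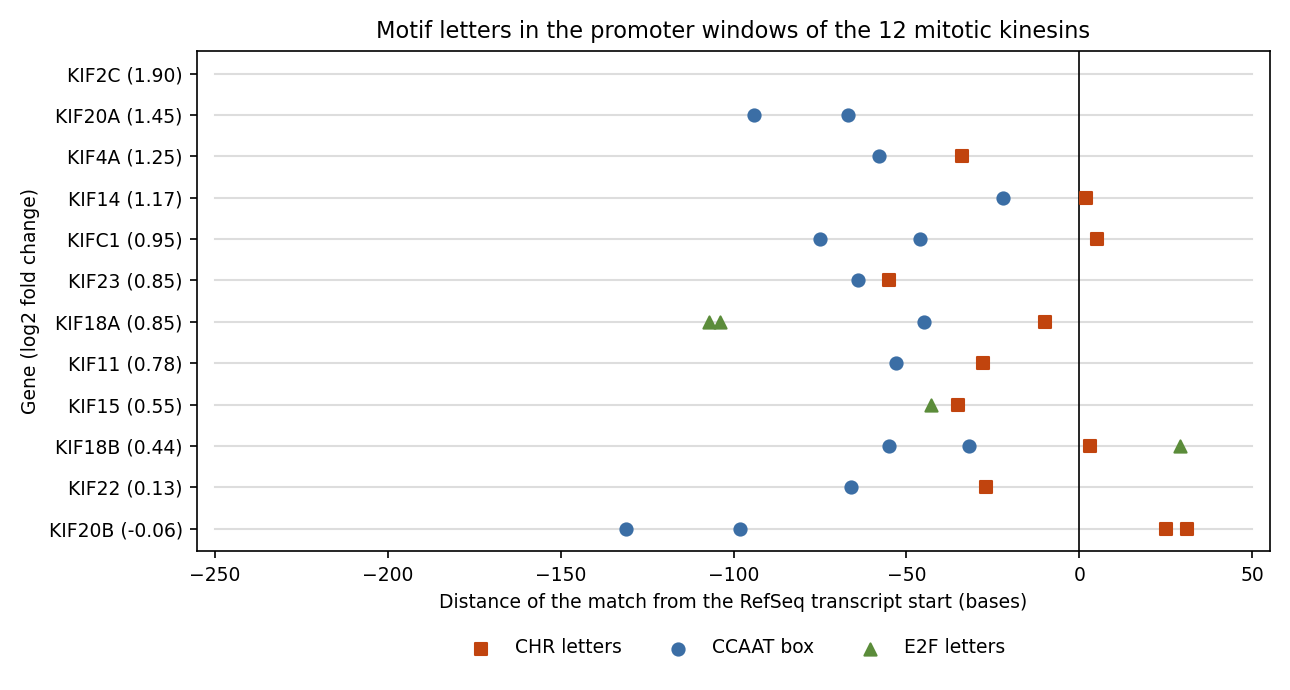
Positions of CHR, CCAAT and E2F letters (first base of each match, either strand) relative to the RefSeq transcript start (0) in the window of each mitotic kinesin, ordered by log2 fold change, with the first of 2 windows for KIF22. CHR letters lie between -55 and 31 bases of the start in 10 genes, and KIF2C at the top has no match.

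Of 20 listed spindle partners and regulators of mitotic kinesins, 16 rose and 0 fell by edgeR, while 14.7% of all genes tested were called higher and 13.2% lower. Their median log2 fold change was 0.88, against -0.02 over all genes, and 0 were lower at an unadjusted p under 0.05 or by DESeq2 or limma. Not called were CKAP5 (0.18 ± 0.08), MAPRE1 (0.17 ± 0.08), ECT2 (0.08 ± 0.08) and INCENP (-0.08 ± 0.10). HMMR, a spindle microtubule protein, rose by 1.27 ± 0.09. The mitotic kinase AURKA rose by 1.27 ± 0.09, the passenger subunit BIRC5 by 1.31 ± 0.10 and the checkpoint kinase BUB1 by 1.10 ± 0.09 (edgeR adjusted p between 1.4e-05 and 3.6e-05). CENPE, the kinetochore motor of the kinesin-7 class, is a kinesin whose symbol lies outside the naming rule. It had 40.5 CPM in treated and 17.6 CPM in control cells on average and rose by 1.20 ± 0.11 (edgeR adjusted p = 4.3e-05). PRC1, the midzone bundler that KIF4A binds, rose by 0.72 ± 0.20, and RACGAP1, the partner of KIF23 in centralspindlin, by 0.71 ± 0.15 (edgeR adjusted p = 0.0241 and 0.00716). Of 11 subunits of the DREAM and MuvB complexes and related factors, 2 rose, FOXM1 (0.45 ± 0.13, edgeR adjusted p = 0.0243) and RBBP4 (0.23 ± 0.07, edgeR adjusted p = 0.0384). That share is near the 14.7% of all genes called higher. MYBL2, the B-Myb subunit of the activating form, was at 11.1 CPM in both groups (-0.01 ± 0.15, edgeR adjusted p = 0.983). Of the 6 MCM helicase subunits, which mark replication, 4 were lower, against 13.2% of all genes tested. All 5 listed markers of mitosis (CCNB1, CCNB2, CDC20, TOP2A and MKI67) were higher, against 14.7% of all genes tested. The link of either list to the kinesins was not tested.

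Of the 31 other kinesins the filter passed 27, of which 8 rose and 1 fell, while 14.7% and 13.2% of all genes tested were called higher and lower. DESeq2, run without this filter, called 9 higher and 1 lower among the 30 in its fit. In 9 of the 27 all treated values lay above the control values and in 5 below, as in 21.8% and 21.7% of genes. The median log2 fold change of the 27 was 0.23. Of the 39 kinesins tested, 0 were called lower by edgeR with a log2 fold change of -1 or less, near the 3.54% of all genes tested. The difference between mitotic and other kinesins was not tested.

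**Figure D3:**
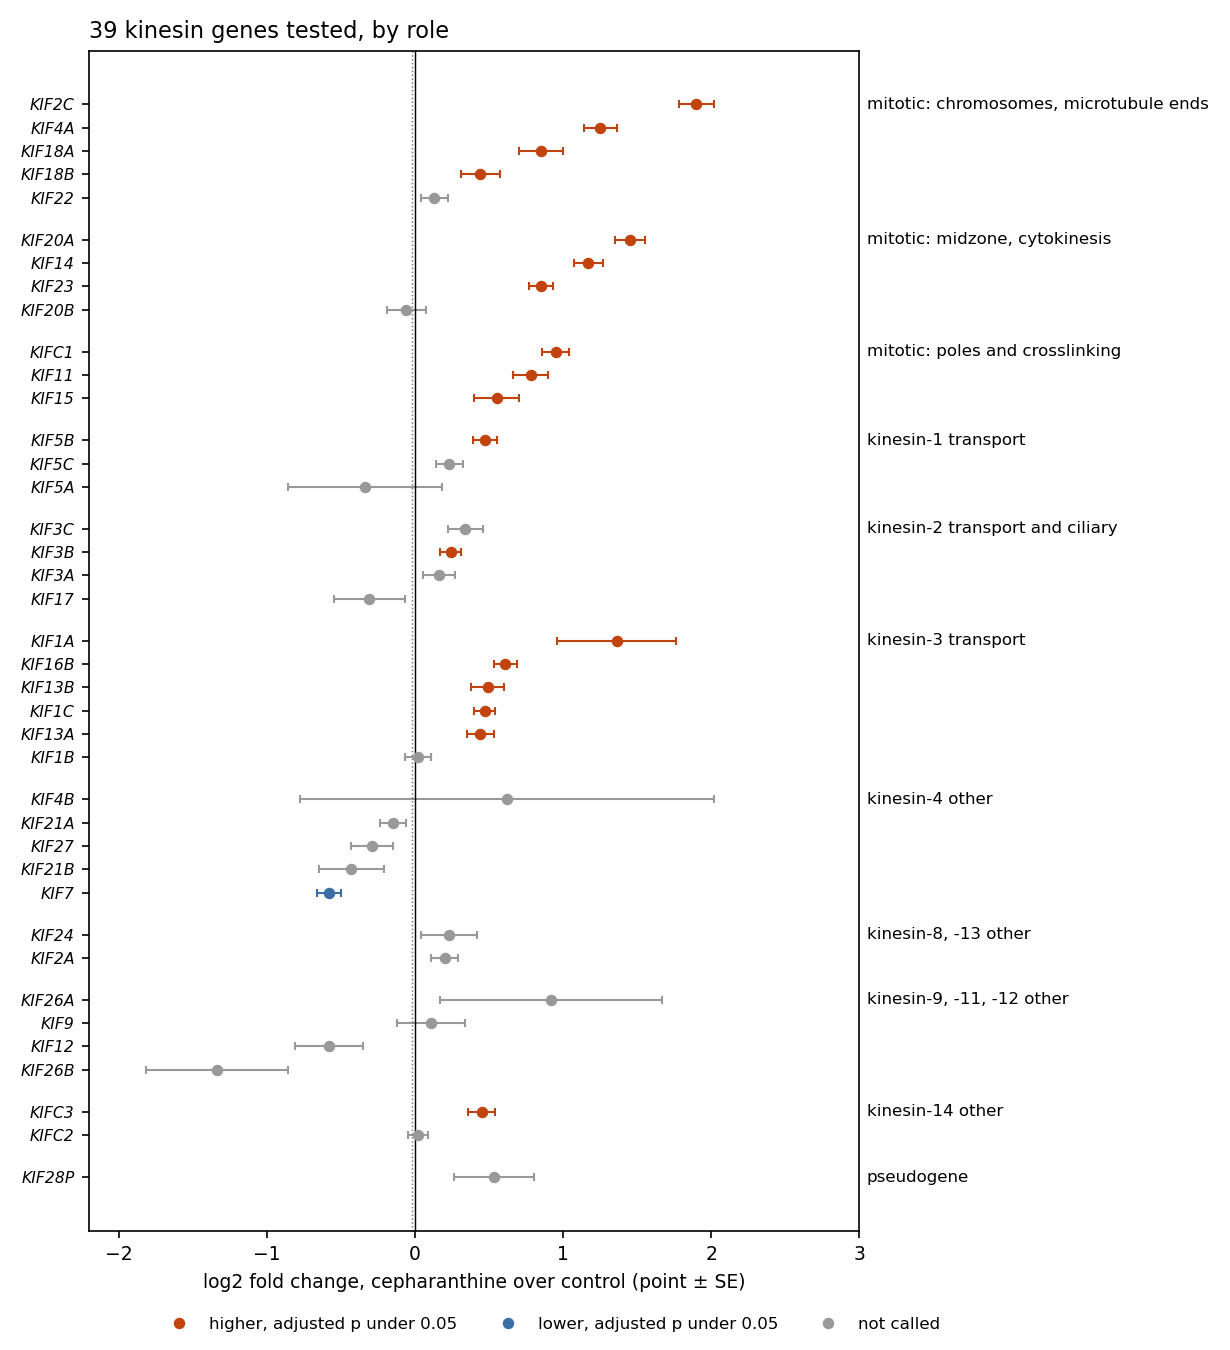
Log2 fold change (cepharanthine over control, edgeR) with SE of the 39 kinesin genes tested, grouped by role and coloured by call, with the median of all genes tested as a dotted line at -0.02. The 12 mitotic members at the top span -0.06 to 1.90, and the 27 others span -1.34 to 1.36, with wide errors for genes of few counts.

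Kinesin-3 motors, which carry vesicles over long distances, held 5 of the 8 rises. All 6 were tested and 5 were called higher, while 14.7% of all genes tested were called higher. KIF1C (chromosome 17 from 4997950 to 5028401), a carrier of Golgi-derived vesicles and integrins, had 131, 129 and 127 CPM in treated and 95.2, 88.8 and 95.5 CPM in control libraries. KIF16B, which moves early endosomes through a lipid-binding PX domain, had 35.4, 34.3 and 34 CPM in treated and 21.9, 22.5 and 23.4 CPM in control libraries. Neither overlapped between groups, and they rose by 0.47 ± 0.07 and 0.61 ± 0.08 (edgeR adjusted p = 7.8e-04 and 5.4e-04). KIF13A, which carries cargo to recycling endosomes, had 47.0, 43.6 and 47.2 CPM in treated and 37.5, 33.7 and 30.2 CPM in control libraries. Its relative KIF13B had 30.9, 29.8 and 36.6 CPM in treated and 22.1, 22.3 and 25.1 CPM in control libraries. Both rose without overlap, KIF13A by 0.44 ± 0.09 and KIF13B by 0.49 ± 0.11 (edgeR adjusted p = 0.00664 and 0.00742). In limma without a filter neither was called (limma adjusted p = 0.0664 and 0.0811). KIF1B, a carrier of mitochondria and synaptic vesicle precursors, overlapped at 56.6, 51.8 and 56.7 CPM in treated and 59.6, 55.1 and 48.6 CPM in control libraries (0.02 ± 0.09, edgeR adjusted p = 0.921).

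KIF1A, the neuronal carrier of synaptic vesicle precursors, was called higher at a very low level. It had 57, 57 and 54 counts in treated and 21, 21 and 17 counts in control libraries, or 0.930 ± 0.149 and 0.360 ± 0.0295 CPM (SD, n = 3). The groups did not overlap, with a log2 fold change of 1.36 ± 0.40 (edgeR adjusted p = 0.0309). This call ended without cepharanthine replicate 1 (1.34, edgeR adjusted p = 0.0836), cepharanthine replicate 2 (1.26, edgeR adjusted p = 0.0997), control replicate 1 (1.43, edgeR adjusted p = 0.0532), control replicate 2 (1.34, edgeR adjusted p = 0.0625) or control replicate 3 (1.32, edgeR adjusted p = 0.072). It ended too with no filter on counts (1.37, edgeR adjusted p = 0.0507) and in limma without a filter (0.04, limma adjusted p = 0.168). Over 12 alternatives the adjusted p ranged from 0.0309 to 0.168. The neuronal markers SYP and RBFOX3 averaged 0.451 and 0.108 FPKM in treated and 0.227 and 0.107 FPKM in control cells. Neither was called by edgeR. SYP missed the threshold narrowly (0.93 ± 0.31, edgeR adjusted p = 0.0506), with all treated values above the control values. By DESeq2, 1 of the 2 was called higher.

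**Figure D4:**
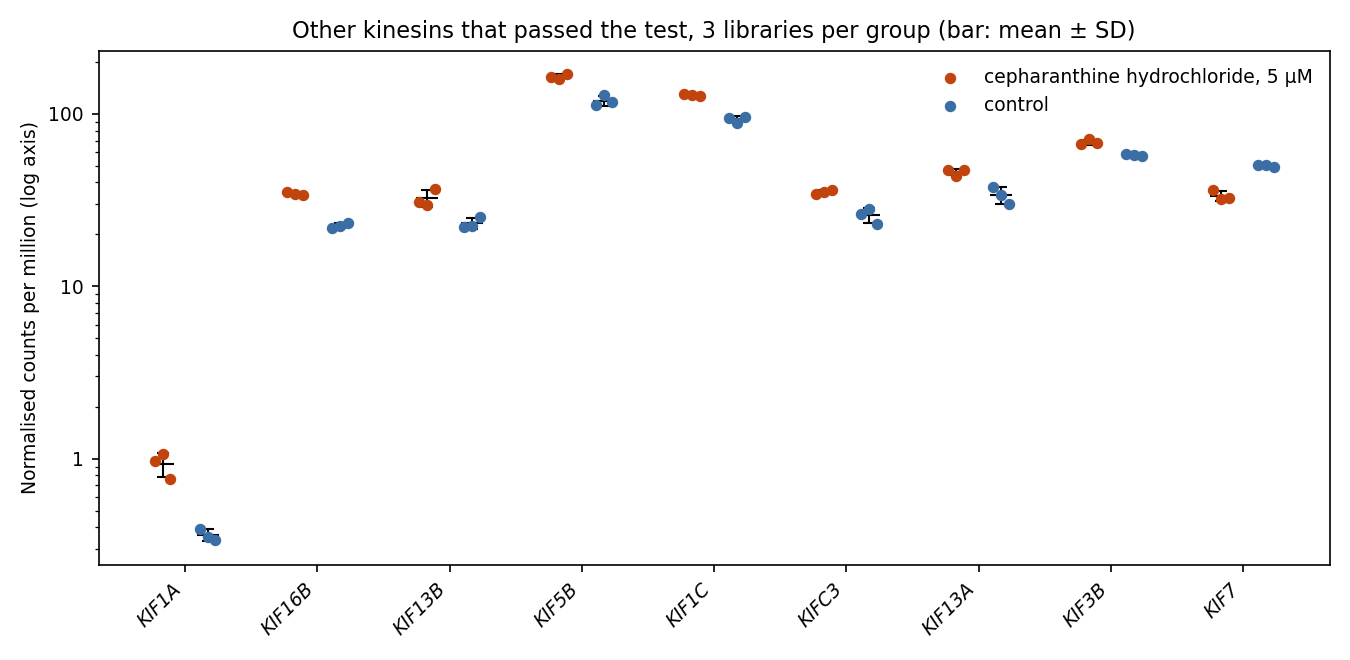
TMM-normalised CPM (log axis) of the 9 other kinesins that passed the test, ordered by log2 fold change, in the 3 cepharanthine libraries and the 3 control libraries (points), with mean and SD (bars). KIF1A lies near 1 in treated libraries and below it in control libraries, and KIF7 at the right is the gene that was lower in treated cells.

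Of the kinesin-1 heavy chains, the conventional kinesin that carries lysosomes, mitochondria and messenger RNAs, 1 of 3 rose. KIF5B (chromosome 10 from 32009015 to 32056425), the ubiquitous form, had 164, 160 and 170 CPM in treated and 112, 128 and 117 CPM in control libraries. It rose by 0.47 ± 0.08 without overlap (edgeR adjusted p = 0.00147). KIF5C had 45.9, 41.0 and 47.6 CPM in treated and 41.5, 35.7 and 37.2 CPM in control libraries and was not called (0.23 ± 0.09, edgeR adjusted p = 0.0883), but was in limma on log2(TPM + 1) (0.44, limma adjusted p = 0.0182). The neuronal KIF5A had 0.298 to 0.896 CPM in treated and 0.502 to 1.01 CPM in control libraries and was not called (-0.34 ± 0.52). On the opposite strand KIF5A overlaps DCTN2, which has far more counts and was called higher (0.57 ± 0.07, edgeR adjusted p = 3.6e-04). The list of light chains, accessory subunits and kinesin-1 cofactors held 10 genes, of which 3 rose and 0 fell. Among all genes tested, 14.7% were called higher and 13.2% lower. The light chains that pair with these motors were not called. KLC1 was at -0.09 ± 0.07, KLC2 at -0.08 ± 0.09, KLC3 at 0.48 ± 0.23 and KLC4 at 0.09 ± 0.08. MAP7, which recruits kinesin-1 to microtubules, rose by 0.49 ± 0.14 and MAP7D1 by 0.32 ± 0.10 (edgeR adjusted p = 0.029 and 0.0325). KIFBP, an inhibitor of several kinesins, rose by 0.28 ± 0.09 (edgeR adjusted p = 0.0426). MAP7D2 (0.75 ± 0.34) and MAP7D3 (-0.83 ± 0.40) were not called.

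Of 23 cargo adaptors of transport motors, 9 rose and 3 fell (median log2 fold change 0.17), against 14.7% and 13.2% of all genes. By DESeq2, 9 were called higher and 3 lower, and by limma on log2(FPKM + 1) 9 higher and 1 lower. PLEKHM2 (SKIP), a lysosomal adaptor of kinesin-1, rose by 0.40 ± 0.08 (edgeR adjusted p = 0.0041). PLEKHM1, which acts on late endosomes and lysosomes, averaged 196 CPM in treated and 114 CPM in control cells and rose by 0.79 ± 0.09. The mitochondrial adaptor TRAK2 rose by 0.47 ± 0.08, while TRAK1 was at -0.15 ± 0.10 and was not called (edgeR adjusted p = 0.00199 and 0.326). The scaffold SPAG9 (JIP4) rose by 0.44 ± 0.07 and its relative MAPK8IP3 (JIP3) fell by 0.53 ± 0.08 on the log2 scale (edgeR adjusted p = 0.0018 and 0.00114). BICD2 and HOOK2, which serve dynein, also fell (-0.34 ± 0.09 and -0.27 ± 0.08, edgeR adjusted p = 0.0185 and 0.0341).

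Among kinesin-2 motors, which drive transport into cilia and of other cargo, KIF3B rose. KIF3B had 67.1, 71.2 and 67.4 CPM in treated and 58.8, 58.1 and 56.9 CPM in control libraries, which did not overlap. Its change was small (0.24 ± 0.07, edgeR adjusted p = 0.0246). The call ended without cepharanthine replicate 1 (0.26, edgeR adjusted p = 0.0617), cepharanthine replicate 2 (0.22, edgeR adjusted p = 0.106) or control replicate 3 (0.23, edgeR adjusted p = 0.0832), and its adjusted p ranged from 0.00715 to 0.106 over 15 alternatives. KIF3C had 50.7, 43.5 and 47.7 CPM in treated and 44.6, 31.7 and 35.8 CPM in control libraries. The groups overlapped through control replicate 1, and the test was missed (0.34 ± 0.12, edgeR adjusted p = 0.0659). KIF3C was called without control replicate 1 (0.49, edgeR adjusted p = 0.0121) and by DESeq2 (0.35, DESeq2 adjusted p = 0.0251). It was also called in the filtered limma fits of log2(FPKM + 1), log2(FPKM + 0.1) and log2(TPM + 1), with limma adjusted p of 0.0479, 0.0477 and 0.00839. KIF3A, the partner of KIF3B in the heterodimer, was at 0.16 ± 0.11, its accessory subunit KIFAP3 at 0.15 ± 0.17 and the homodimeric KIF17 at -0.31 ± 0.24, with none of these called.

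KIF7, the kinesin-4 relative that organises the ciliary tip and regulates Hedgehog signalling, was the kinesin that fell. KIF7 (ENSG00000166813, chromosome 15 from 89608789 to 89655467 on the minus strand) had 36.2, 31.9 and 32.4 CPM in treated and 50.4, 50.5 and 49.4 CPM in control libraries. The groups stood apart, with a log2 fold change of -0.58 ± 0.08 (edgeR adjusted p = 6.1e-04). On the FPKM scale it averaged 5.94 ± 0.543 in treated and 8.54 ± 0.428 in control cells (SD, n = 3), at rank 13 and 4 among the 43 kinesins. KIF7 overlaps TICRR on the opposite strand over 19235 bases, and TICRR was at -0.31 ± 0.12 (edgeR adjusted p = 0.0836). The other kinesin-4 members KIF21A, KIF21B and KIF27 had log2 fold changes of -0.15 ± 0.09, -0.43 ± 0.22 and -0.29 ± 0.14 and were not called. All treated values of KIF21A and KIF21B lay below the control values. KIF4B, a retrocopy of KIF4A, had 33 counts over the treated and 20 over the control libraries. Of the 50-base words in GENCODE 29 transcripts, KIF4B shared 14% with KIF4A and no other kinesins shared any, so reads between these copies are uncertain.

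KIFC2, a kinesin-14 motor known from mouse neurons, was the most abundant kinesin per length, with 42.0 ± 2.35 FPKM in treated and 39.8 ± 2.02 FPKM in control cells (SD, n = 3). KIF5B was at rank 2 with 25.0 ± 1.83 and 17.4 ± 1.90 FPKM, and KIF1C at rank 3 with 13.4 ± 0.555 and 9.28 ± 0.0743 FPKM. KIFC2 counts came to 217, 207 and 207 CPM in treated and 201, 209 and 211 CPM in control libraries, which overlapped (0.02 ± 0.07, edgeR adjusted p = 0.853). KIFC3, a minus-end motor found at epithelial junctions, had 34.1, 35.1 and 36.1 CPM in treated and 26.1, 28.1 and 23.1 CPM in control libraries. It rose by 0.45 ± 0.09 without overlap (edgeR adjusted p = 0.00647).

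The remaining members were not called by edgeR. KIF2A, a microtubule depolymerase of spindle poles and neurons that is related to KIF2C, had 51.3, 60.2 and 61.2 CPM in treated and 50.1, 53.4 and 47.2 CPM in control libraries (0.20 ± 0.09, edgeR adjusted p = 0.141), and limma on log2(TPM + 1) called it higher (0.40, limma adjusted p = 0.0452). KIF24, a depolymerase of the same class at centrioles, was at 0.23 ± 0.19. On the opposite strand KIF24 overlaps UBAP1, which has more counts and was called higher (0.91 ± 0.11, edgeR adjusted p = 2.3e-04). KIF26B, at 0.330 ± 0.153 CPM in treated and 0.840 ± 0.118 CPM in control cells (SD, n = 3), had a log2 fold change of -1.34 ± 0.48 (edgeR adjusted p = 0.0638), and it was called lower without cepharanthine replicate 1 (-1.78, edgeR adjusted p = 0.0384). KIF12, KIF9 and KIF26A were at -0.58 ± 0.23, 0.11 ± 0.23 and 0.92 ± 0.75. KIF9 overlaps KIF9-AS1 and KLHL18, which have more counts, on the opposite strand. The pseudogene KIF28P was at 0.53 ± 0.27 and overlaps AHCTF1, which has far more counts, over 514 bases on the same strand. On the opposite strand KIF28P overlaps LINC01341 over 16506 bases. LINC01341 has more counts than KIF28P and was called higher (0.86 ± 0.19, edgeR adjusted p = 0.00775). The filter removed 4 members, KIF6 with 12 counts in all, KIF2B with 8, KIF19 with 4 and KIF25 with 0. A gene at 0 counts could lie at up to 3 counts, or 0.0426 to 0.0594 CPM depending on the library, for counting error only.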

How the data were processed

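The deposited table gives, per the file headers, raw read counts and FPKM for each gene and library, and counts were whole numbers. No aligner, counter, strand setting or annotation is stated. GRCm38, mm10 and hg38 are named, without roles, in the submitters' processing notes. Control columns have a prefix unlike the sample titles and were assigned through their group and replicate number. Coordinates are those of the deposited table. All 43 kinesins had a GENCODE 29 (GRCh38) entry overlapping on the same chromosome and strand, of which 35 shared a start or an end and 13 both. The deposited counts entered a quasi-likelihood F-test (edgeR 4.0.16 in R 4.3.3, filterByExpr, TMM, two-sided), treated over control, with Benjamini-Hochberg adjustment over 21965 genes and a threshold of 0.05. SE is the absolute log2 fold change divided by the square root of F. Log2 of the deposited FPKM plus 1 or 0.1 was fitted with limma 3.58.1 where the mean FPKM reached 1. Other alternatives were DESeq2 1.42.0, RLE factors, no filter, a replicate block, leaving out each library, and leaving out mitochondrial genes. The edgeR, DESeq2 and limma fits were also run on simulated data. How well they recovered changes of the size of most kinesin calls is not reported here. Correlations of log2 CPM were 0.991 to 0.993 within groups and 0.976 to 0.982 between them.

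The members, lists and naming rule were chosen with earlier results of these data known. The rule named every kinesin, up to 4 members of each list by adjusted p, and adaptors, light chains and factors of a kinesin described. CENPE, PRC1, RACGAP1, BICD2, HOOK2, DYNC1H1, ACTR1B, IFT27, IFT172, the 4 uncalled spindle partners, overlapping genes and markers were named besides, after their values were seen. Promoter motifs were chosen after the fold changes were known.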

Additional observations from a re-analysis of the deposited data

How the results depend on the processing

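Of the 10 mitotic kinesins called, 8 kept direction and call under all 15 alternatives, and KIF18B and KIF15 lost theirs under some. Without single libraries 8 to 10 mitotic kinesins were called higher. Of the 9 other kinesins called, 4 kept direction and call throughout, and 5 lost theirs under some alternative. Without single libraries 6 to 8 others were called higher and 1 to 2 lower, and the median of the others was 0.16 to 0.25. In limma on log2(FPKM + 1) without a filter, 2077 genes were higher and 1333 lower, 4 other kinesins were called higher (KIF1A, KIFC3, KIF13A and KIF13B lost theirs), and the medians were 0.69 (mitotic) and 0.06 (others). With a filter 1897 genes were lower and the mitotic median was 0.69; with 0.1 added 1883 were lower and the median of others was 0.29. After rescaling to TPM 4931 genes were higher and 983 lower, with medians of 1.0 (mitotic) and 0.46 (others). These lay 0.74 and 0.20 above the median of all genes, against 0.86 and 0.25 in the edgeR test. The median of the others covered 16 genes in the filtered limma fits, TPM included, 30 in limma without a filter and 27 in the edgeR test. Those medians are therefore of different sets of genes. On TPM 11 mitotic and 10 other kinesins were called higher, with KIF22, KIF5C, KIF2A and KIF3C gained. KIF1A, with a mean FPKM under the filter, was not in that fit. Directions turned in uncalled members. Without single libraries KIF20B ranged from -0.17 to 0.01, KIFC2 from 0.00 to 0.03, KIF1B from -0.06 to 0.09 and KIF4B from -0.21 to 2.29. On TPM KIF20B was at 0.15 and KIF21A at 0.08. The cause was not tested.

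Libraries of the same replicate number did not deviate together from their group means (correlations of 0.0467, -0.0522 and -0.154), nor did each correlate best with its own number. With the replicate block 2544 genes were higher and 2294 lower, 8 mitotic kinesins were higher, and 7 others were higher and 1 lower. With the block the adjusted p (edgeR) of KIF15, KIF18B, KIF3B and KIF1A was 0.0538, 0.0568, 0.076 and 0.0737, and KIF3C was called (0.039).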

Other observations

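Dynein, the motor that moves cargo towards the cell centre against most kinesins, was described as a list of cytoplasmic dynein and dynactin subunits and regulators. Of the 23 genes listed, 22 passed the filter, 13 rose and 2 fell, with a median log2 fold change of 0.36, against -0.02 over all genes tested, of which 14.7% were called higher and 13.2% lower. The light chains DYNLT3 and DYNLL1 rose by 0.73 ± 0.09 and 0.69 ± 0.10, and the dynactin subunits DCTN2 and DCTN4 by 0.57 ± 0.07 and 0.39 ± 0.07 (edgeR adjusted p between 2.9e-04 and 0.00231). The genes that fell were DYNC1H1, the heavy chain that carries the motor domain (-0.31 ± 0.07, edgeR adjusted p = 0.00706), and the actin-related dynactin subunit ACTR1B (-0.35 ± 0.12, edgeR adjusted p = 0.0483). DYNC1H1 averaged 1100 CPM in treated and 1370 CPM in control cells. By DESeq2, 13 of the list were called higher and 2 lower. Limma on log2(FPKM + 1) called 12 higher and 0 lower, so the 2 falls were not called there.

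Of 20 genes of intraflagellar transport, the ciliary system moved by kinesin-2 and dynein-2, 3 rose and 3 fell, shares near the 14.7% and 13.2% of all genes tested. IFT52, IFT20 and TRAF3IP1 rose by 0.77 ± 0.14, 0.41 ± 0.10 and 0.46 ± 0.11, and WDR35, IFT27 and IFT172 were lower, at -0.53 ± 0.09, -0.28 ± 0.09 and -0.27 ± 0.09 (edgeR adjusted p between 0.00218 and 0.0491). The median of the list was 0.16. By DESeq2, 3 were called higher and 2 lower, and by limma on log2(FPKM + 1) 3 higher and 1 lower.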
